A study of Mus musculus with 6 samples.

Results

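Cxcl9, Cxcl10 and Cxcl11 encode the chemokine ligands of the receptor CXCR3, and all 3 were among the 754 genes measured in macrophages from the peritoneum of mice with ovarian tumors. The genes were selected on their measured values in these same samples, after Cxcl9 and Cxcl10 had been seen to be lower with nanoparticle treatment, so their difference between the groups is given as a description with no test. The study asked whether nanoparticles that carry mRNA for the transcription factor IRF5 change the state of tumor-associated macrophages. In its methods these particles hold a second mRNA, for the kinase IKKβ, which the labels do not name. Adult C57BL/6J mice had been injected with ID8 cells, a mouse ovarian cancer line, 7 weeks earlier, and received 2 intraperitoneal doses, on days 1 and 5, of PBS or of nanoparticles holding 30 µg of mIRF5 mRNA (IRF5-NPs). Peritoneal lavage cells were sorted as F4/80+ CD11b+, and total RNA was read on a NanoString nCounter panel, which counts color-coded probes without amplification. Each group had 3 samples.

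The labels and the methods of the study also differ in the dose and in the time after tumor injection, and the values above are those of the labels. Beyond what is given above, the methods name female albino B6 mice and ID8 cells made to express VEGF. Both groups carried the tumor, and neither an empty particle nor a particle with a control mRNA was analysed here, so effects of the particle, of IRF5 and of IKKβ cannot be told apart. PBS replicates 2 and 3 differed by no more than counting noise over all genes (chi-square of 1.07 per degree of freedom, p = 0.0782), and they were averaged and counted as 1 sample, which leaves 2 distinct PBS samples and 3 IRF5-NP samples. The sources do not say whether samples came from separate mice, so p-values measure only the spread between these samples. Counts per sample summed to 683472 to 1830318 before normalization. IRF5-NP replicate 3 had the lowest total and the highest background, 79.4 normalized counts against 25.6 to 37.8 in the other samples, where background is the mean of 8 negative control probes plus 2 SD. Of the 8 macrophage markers on the panel, all were above background and their summed levels were 67363 to 76977 normalized counts with PBS and 52058 to 107130 with IRF5-NPs. Of these markers 1 fell, Mertk (log2 change -1.23, limma adjusted p = 0.0218), a call lost without PBS replicate 1 or any IRF5-NP library (0.0580 to 0.121), and Mrc1 had a change of -2.02 (adjusted p = 0.0664).

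CXCL9, CXCL10 and CXCL11 are small secreted proteins that attract activated T cells and natural killer cells, which carry CXCR3. Macrophages make them in response to interferon-gamma (IFN-γ), in part through the transcription factor IRF1. Cxcl9 is known to depend mainly on IFN-γ, whereas Cxcl10 is also switched on by type I interferon, through interferon-stimulated response elements, and by NF-κB.

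The genes are neighbors on chromosome 5. In the RefSeq annotation of GRCm38.p6 the order is Sdad1, a pseudogene, Cxcl9, Art3, Cxcl10, Cxcl11, another pseudogene and Nup54. RefSeq lists Cxcl9 (gene ID 17329) and Cxcl10 (gene ID 15945) as protein coding and Cxcl11 (gene ID 56066) as a transcribed pseudogene. The C57BL/6 strain is known to carry a frameshift in Cxcl11, so that its transcript does not give a working chemokine.

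The 250 bases upstream of the start of Cxcl9 and of Cxcl10 are shown as background to their regulation. Whether the motifs bear on the measured values of the genes was not tested. The sequences are from RefSeq, GRCm38.p6, minus strand, printed 5′ to 3′ towards the start. The windows are chr5:92328080-92328329 for Cxcl9 and chr5:92348890-92349139 for Cxcl10. Capitals mark letters that matched a searched motif.
Cxcl9: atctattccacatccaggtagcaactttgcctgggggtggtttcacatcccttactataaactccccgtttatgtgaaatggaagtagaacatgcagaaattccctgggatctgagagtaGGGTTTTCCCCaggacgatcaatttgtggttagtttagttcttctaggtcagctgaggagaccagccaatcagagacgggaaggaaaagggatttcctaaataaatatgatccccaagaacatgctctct
Cxcl10: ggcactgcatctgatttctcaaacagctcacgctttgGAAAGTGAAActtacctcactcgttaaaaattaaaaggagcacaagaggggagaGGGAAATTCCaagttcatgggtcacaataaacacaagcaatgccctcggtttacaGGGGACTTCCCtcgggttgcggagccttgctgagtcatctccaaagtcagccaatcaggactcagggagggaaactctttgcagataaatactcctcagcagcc
Both strands were searched. The core of the interferon-stimulated response element, GAAANNGAAA, was present in the Cxcl10 window at -213 to -204 from the start and had 0 matches in the Cxcl9 window. It was present in 2.98% of 32851 upstream windows of the same length. The gamma-activated sequence, TTCNNNGAA, an element of genes that respond to IFN-γ, had 0 matches in either window and was present in 7.02% of all windows. The kappaB motif GGGNNNNNCC had 2 overlapping matches in Cxcl9, between -130 and -120, and 3 in Cxcl10, of which 2 overlapped, at -159 to -150 and between -104 and -94. This motif was present in 45.8% of all windows. These matches are descriptions of the sequence and not measured binding.

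Cxcl9 and Cxcl10 were both lower with IRF5-NPs, Cxcl9 by 7.84-fold and Cxcl10 by 3.02-fold, and Cxcl11 lay at or below background. Cxcl9 was measured at 381, 877 and 910 normalized counts in PBS replicates 1, 2 and 3, and at 60.9, 76.1 and 85.8 in IRF5-NP replicates 1, 2 and 3. The PBS values were therefore high and unequal, the IRF5-NP values were low and close together, and the groups did not overlap. The lowest PBS value was 4.44 times the highest IRF5-NP value. The mean over the PBS samples was 637 ± 363 (SD, n = 2 distinct samples), and that over the IRF5-NP samples was 74.2 ± 12.5 (SD, n = 3). The log2 change, IRF5-NPs over PBS, was -2.97, with SDs of 0.87 and 0.25 on the log2 scale within the PBS and IRF5-NP groups.

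Cxcl10 was measured at 163, 591 and 582 normalized counts in PBS replicates 1, 2 and 3, and at 142, 77.2 and 96.1 in IRF5-NP replicates 1, 2 and 3. PBS replicate 1 stood much nearer to the IRF5-NP samples than to the other PBS samples. The groups did not overlap, but the gap was narrow, and the lowest PBS value was 1.15 times the highest IRF5-NP value. By counting error alone the 95% interval of PBS replicate 1, 138 to 190, overlapped that of IRF5-NP replicate 1, 120 to 167. The group means were 375 ± 300 (SD, n = 2 distinct samples) and 105 ± 33.2 (SD, n = 3). The log2 change was -1.59, with SDs of 1.30 and 0.44, so that the change of Cxcl10 was close in size to the spread between the PBS samples.

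Cxcl11 was measured at 38.4, 32.1 and 35.1 normalized counts in the PBS samples, which were 1.01 to 1.25 times background. In the IRF5-NP samples it was measured at 20.9, 9.92 and 33.8, all below background. The groups overlapped, and no fold change is given because the IRF5-NP values carry no level. A difference in Cxcl11 was therefore not detectable against this background.

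**Figure D1:**
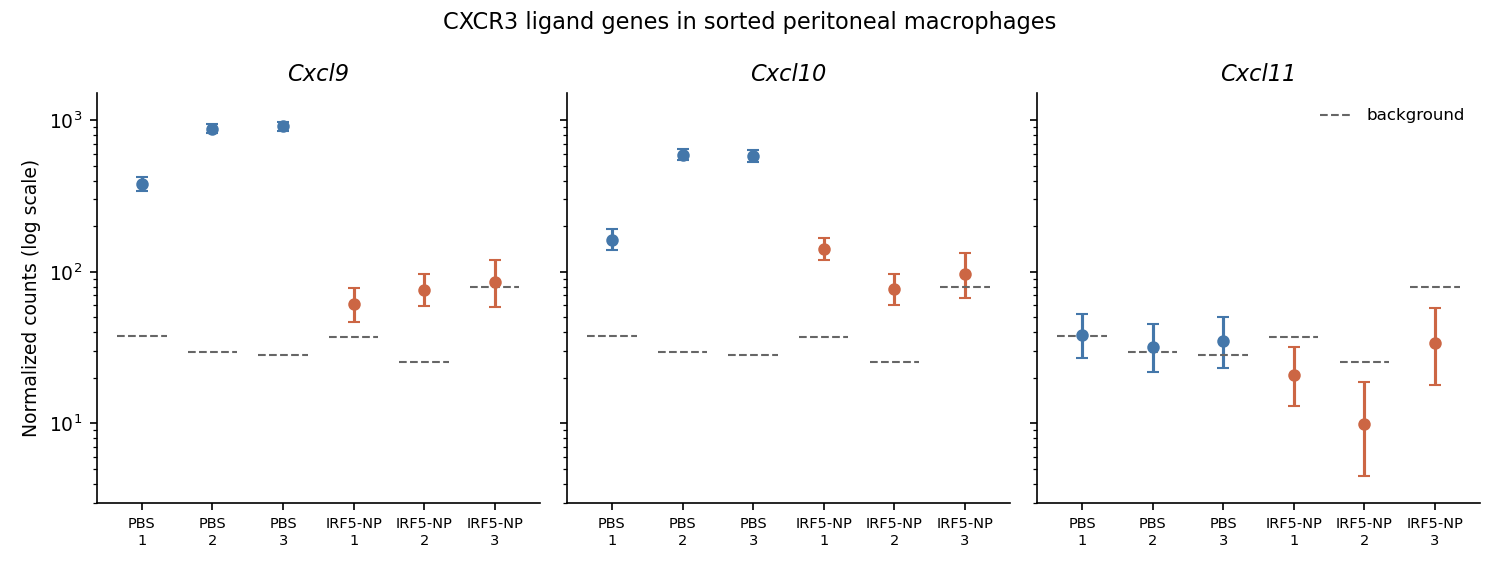
Normalized counts (log axis) of Cxcl9, Cxcl10 and Cxcl11 in the 3 PBS samples (blue) and the 3 IRF5-NP samples (red). Bars are exact 95% Poisson intervals (counting error only), dashed lines are each sample's background, the IRF5-NP points of Cxcl9 lie between 60.9 and 85.8, below all PBS points, PBS replicate 1 of Cxcl10 lies next to IRF5-NP replicate 1, and Cxcl11 lies near or under the dashed lines.

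Thus 2 of the 3 genes had all IRF5-NP values below all PBS values, which was also the case for 20.4% of the 754 genes of the panel. Nothing is read from this count, since the genes were chosen by that contrast. Levels with IRF5-NPs came close to the floor of the assay. In IRF5-NP replicate 3, Cxcl9 was 1.08 times and Cxcl10 1.21 times background, and both 95% intervals included the background. With background subtracted the log2 change was -3.61 for Cxcl9 and -1.98 for Cxcl10. In bulk RNA, fewer cells that make a transcript and less transcript per cell cannot be told apart.

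The direction was shared, and both genes were lower in PBS replicate 1 than in the other PBS samples, but their patterns over samples differed in part. Because probes differ in efficiency, only the ratio of the genes across samples was compared. The log2 ratio of Cxcl9 to Cxcl10 was 1.22, 0.57 and 0.64 in PBS replicates 1, 2 and 3, and -1.21, -0.02 and -0.16 in IRF5-NP replicates 1, 2 and 3. All PBS ratios were above all IRF5-NP ratios. The means were 0.91 ± 0.43 (SD, n = 2 distinct samples) and -0.46 ± 0.65 (SD, n = 3), a difference of -1.38. Cxcl9 was lower by more than Cxcl10, and replicate 1 of each group was farthest from the other samples of its group, in opposite directions.

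PBS replicate 1 decided much of the size of both changes. Its log2 level was under the mean of PBS replicates 2 and 3 by 1.23 for Cxcl9, which is 2.34-fold, and by 1.84 for Cxcl10, which is 3.59-fold. Against PBS replicate 1 alone the log2 change with IRF5-NPs was -2.36 for Cxcl9 and -0.67 for Cxcl10. Against PBS replicates 2 and 3 it was -3.59 and -2.52. Cxcl9 was thus far below either kind of PBS sample, while Cxcl10 was far below only PBS replicates 2 and 3. This difference depended on the scaling. PBS replicate 1 had the lowest positive control level, 1163 counts against 1793 to 2816 in the other samples, and with positive control scaling the log2 difference was -0.073 for Cxcl9 and -0.69 for Cxcl10. With the deposited scaling, PBS replicate 1 was not low in general. Among the 630 genes above background in at least 1 sample, the median log2 difference between PBS replicate 1 and PBS replicates 2 and 3 was 0.08, with 33 genes (5.24%) at least 2-fold under and 42 (6.67%) at least 2-fold over. Of these genes, 19 were lower by this measure than Cxcl9 and 8 were lower than Cxcl10.

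The genes whose sample pattern was nearest to that of each chemokine were in part of different kinds. Likeness was measured as the root mean square (RMS) difference of centered log2 values over the 5 distinct samples, among 630 genes, so genes nearest to the chemokines share their difference between groups. Among the 5 nearest to Cxcl9 were H2-Ab1 (RMS 0.33), Cd74 (0.34), H2-Aa (0.38) and H2-Eb1 (0.48), against an RMS of 1.51 for the spread of Cxcl9 itself. These 4 genes serve antigen presentation on MHC class II. Cxcl10 came only at rank 17 (RMS 0.81). H2-Ab1, for example, was measured at 24673, 36364 and 35419 normalized counts in PBS replicates 1, 2 and 3, and at 4246, 3403 and 3594 in IRF5-NP replicates 1, 2 and 3. In these genes PBS replicate 1 stayed with the PBS group.

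Nearest to Cxcl10 were Isg15 (RMS 0.38), Mx2 (0.44), Itgal (0.45), Mx1 (0.45) and H2-DMb1 (0.56), against an RMS of 1.01 for Cxcl10 itself, and Cxcl9 came at rank 64. Isg15 encodes a ubiquitin-like protein, and Mx1 and Mx2 encode antiviral GTPases, all known for strong induction by type I interferon. H2-DMb1 is an MHC class II gene, of the kind found nearest to Cxcl9, so the lists were not fully distinct in kind. Isg15 was measured at 264, 1498 and 1612 normalized counts in PBS replicates 1, 2 and 3, and at 368, 286 and 273 in IRF5-NP replicates 1, 2 and 3. PBS replicate 1 was the lowest of all 6 samples for this gene. Mx1 was measured at 96.4, 490 and 471 with PBS and at 121, 118 and 107 with IRF5-NPs, again with PBS replicate 1 lowest. For both chemokines, 5 samples are few, and the lists depend on the measure. By Pearson correlation, 0 of the 5 genes nearest to Cxcl9 and 1 of the 5 nearest to Cxcl10 were kept.

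**Figure D2:**
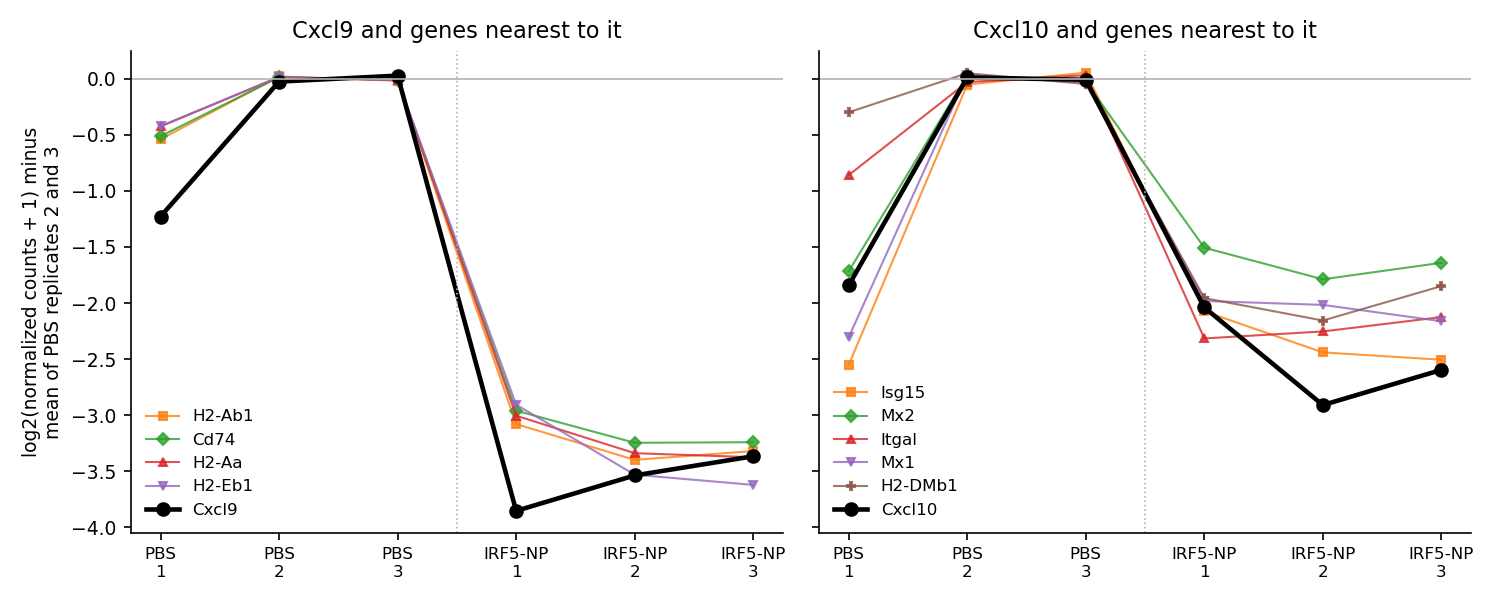
Log2 of normalized counts plus 1, minus the mean of PBS replicates 2 and 3, for Cxcl9 (left, black) and Cxcl10 (right, black) with genes among the 5 nearest to each, 4 shown for Cxcl9 and 5 for Cxcl10, over the 5 distinct samples (colors). With Cxcl9, the nearest genes have PBS replicate 1 close to the other PBS samples, and with Cxcl10 the genes Isg15, Mx1 and Mx2 have PBS replicate 1 as low as the IRF5-NP samples.

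When the group means were removed, so that only differences among samples of the same group remained, the nearest gene to Cxcl9 was Irf1 (RMS 0.10), with Fn1, Tlr3 and Gch1 among the next. Irf1 encodes a transcription factor of the IFN-γ response. The nearest gene to Cxcl10 was Mx2 (RMS 0.20), followed by Enpp2, Adamts14, Isg15 and Ddr2. Cxcl10 was at rank 281 for Cxcl9, and Cxcl9 was at rank 30 for Cxcl10. These patterns rest mainly on PBS replicate 1, in which Irf1 was measured at 698 normalized counts against 1507 and 1452 in PBS replicates 2 and 3. Upstream windows were found for 2 of the 5 genes nearest to Cxcl10 over all samples, Isg15 and H2-DMb1, and the element core GAAANNGAAA was present in that of Isg15. They were found for 2 of the 5 nearest to Cxcl9, H2-Aa and H2-Eb1, with 0 matches to this core. The kappaB motif was present in both of the latter windows and in 0 of the 2 for genes nearest to Cxcl10. With the group means removed, windows were found for 3 of the 5 genes nearest to each chemokine. The kappaB motif was then present for 3 genes near Cxcl9 and 1 near Cxcl10, and the element core for 0 and 1. Over all windows the shares were 45.8% for the kappaB motif and 2.98% for the core. So few windows cannot show a difference between the lists.

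Genes upstream of the chemokines passed the test about as often as genes of the whole panel. Of 13 measured genes for the supply and signalling of IFN-γ, 1 fell and 0 rose with IRF5-NPs, where over the whole panel 53 of 754 genes (7.03%) fell and 19 (2.52%) rose by limma at an adjusted p under 0.05, and the median log2 change of the list was 0.06 against -0.03 over all genes. Those counts rest on single libraries. The total of 72 dropped to 35 when PBS replicate 1 was left out, to 41 for IRF5-NP replicate 2 and to 21 for IRF5-NP replicate 3, and the 53 genes lower became 34 when IRF5-NP replicate 1 was left out. Ifng itself was below background in all samples, at 9.33 to 17.5 normalized counts, as were Il12a and Il12b, which encode the subunits of interleukin-12, an inducer of IFN-γ in T cells and natural killer cells. Ifngr1, the ligand-binding chain of the receptor, had a log2 change of -0.42 ± 0.33 (SE, limma adjusted p = 0.515). Irf1 had a change of 0.40 ± 0.32 (adjusted p = 0.531). The gene that fell was Socs3, a feedback inhibitor of cytokine receptors, with a log2 change of -1.03 ± 0.24 (adjusted p = 0.0380). Its call was lost without PBS replicate 1 (adjusted p = 0.165), IRF5-NP replicate 2 (0.136) or IRF5-NP replicate 3 (0.180). Il18r1, a receptor chain for interleukin-18, had the highest change, 1.28 ± 0.34 (adjusted p = 0.0565), and passed without PBS replicate 3.

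Of 28 other genes known to be induced by IFN-γ, 10 fell and 0 rose, where over the whole panel 7.03% fell and 2.52% rose. The median log2 change of the list was -0.58 against -0.03 over all genes. H2-Aa, H2-Ab1, H2-Eb1, Cd74, H2-DMa and H2-DMb1, which fell, all serve MHC class II and are not independent of each other. The 18 genes that did not pass include Irf1, Socs1, Psmb8, Psmb9, Icam1, Cd40, Nos2 and Fcgr1. The largest falls were in the MHC class II genes that resembled Cxcl9, namely H2-Eb1 (log2 change -3.14 ± 0.29 SE, limma adjusted p = 0.000929), H2-Aa (-3.03 ± 0.29, adjusted p = 0.000929), H2-Ab1 (-3.00 ± 0.27, adjusted p = 0.000929) and the invariant chain Cd74 (-2.89 ± 0.32, adjusted p = 0.00188). H2-DMa and H2-DMb1, which load peptides onto class II molecules, and Cd274, the gene of PD-L1, had log2 changes of -1.52, -1.84 and -2.06. These 7 calls held without each library in turn. The other 3 were less stable. Cd38 was lost without IRF5-NP replicate 1 (adjusted p = 0.0591) or 3 (0.0959), Cxcl16 without PBS replicate 1 (0.121), IRF5-NP replicate 2 (0.0727) or 3 (0.133), and Tap1, a peptide transporter of MHC class I, without PBS replicate 1 or any IRF5-NP library (0.0638 to 0.205). The MHC class I genes H2-K1 and H2-D1 had changes of 0.34 (adjusted p = 0.703) and 0.64 (adjusted p = 0.418). The untested change of Cxcl9, -2.97, lay within the range of the 4 largest falls, -3.14 to -2.89. These genes had been picked as nearest to Cxcl9 by a measure that includes the group difference, so a like change followed from the choice. The class II genes H2-DMb1, H2-DMa and H2-DMb2 changed by less, -1.84, -1.52 and -0.67.

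Of 6 genes induced mainly by type I interferon, 0 passed by limma in either direction, and 1 had an unadjusted p under 0.05. Isg15 had a log2 change of -1.06 ± 0.63 (SE, adjusted p = 0.369), Mx1 of -0.90 ± 0.58 (adjusted p = 0.412) and Mx2 of -0.79 ± 0.47 (adjusted p = 0.378). Usp18, which encodes an ISG15 protease, had a change of 0.21 ± 0.65 (adjusted p = 0.892), and Irf7, an interferon regulatory factor, of 1.20 ± 0.40 (adjusted p = 0.102). The result turned on PBS replicate 1, in which 4 of the 6 genes were at least 2-fold under PBS replicates 2 and 3. Without it, Isg15 (-2.34, adjusted p = 0.00736), Mx1 (-2.05, adjusted p = 0.00855) and Mx2 (-1.65, adjusted p = 0.0349) passed, with 1 distinct PBS sample left that was assumed to vary as the IRF5-NP samples do. Of 6 genes for type I interferons, their receptor and its regulators, 0 passed in either direction, and the lowest adjusted p among them was 0.0644, for Ifnb1. Ifnb1 was measured at 71.55, 66.21 and 71.35 normalized counts in PBS replicates 1, 2 and 3. In IRF5-NP replicates 1, 2 and 3 it was measured at 13.33, 20.95 and 38.98, all below background. Its part in the values of Cxcl10 was not tested.

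**Figure D3:**
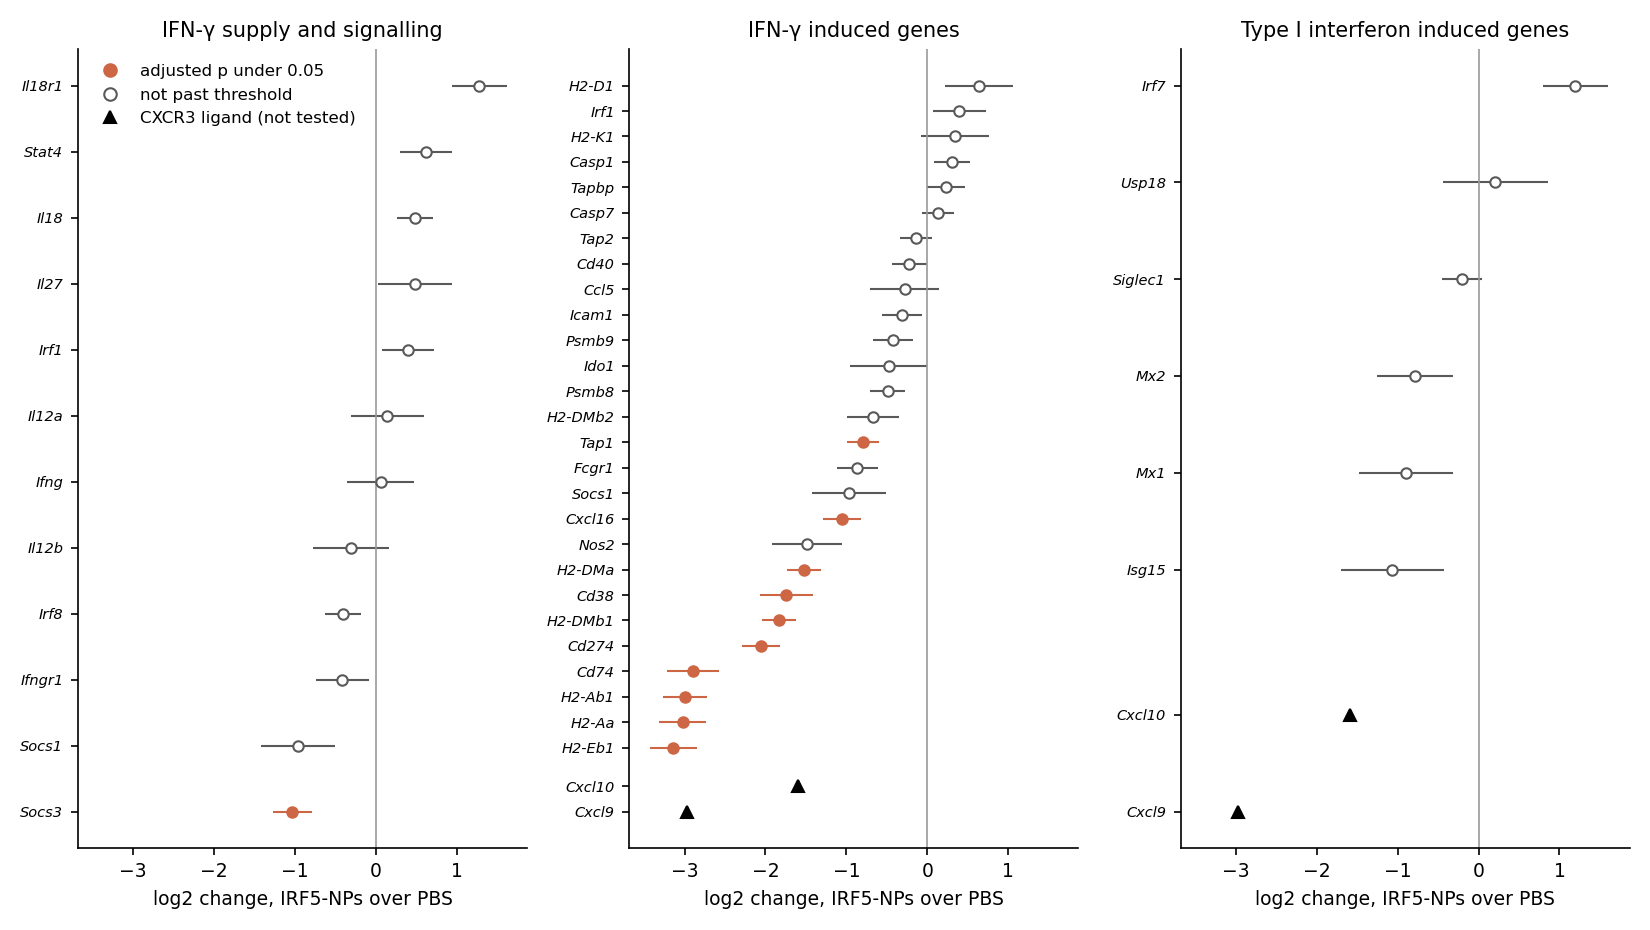
Log2 change, IRF5-NPs over PBS, of measured genes for IFN-γ supply and signalling, the genes induced by IFN-γ and those induced by type I interferon, with limma standard errors as bars. Filled points have an adjusted p under 0.05, and black triangles give the untested changes of Cxcl9 (-2.97) and Cxcl10 (-1.59). Cxcl9 lies among H2-Eb1, H2-Aa, H2-Ab1 and Cd74, which were picked as nearest to it, and Cxcl10 lies between these and Isg15.

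Irf5, the gene whose mRNA was delivered, was measured at 2573, 1991 and 1929 normalized counts with PBS and at 1960, 2358 and 2294 with IRF5-NPs. The groups overlapped (log2 change -0.03 ± 0.22 SE, adjusted p = 0.947). The methods of the study describe the delivered sequence as codon-optimized, and whether the Irf5 probe reads it was not tested, so these values do not check the labels. Of 7 measured members of the IRF family, 0 passed in either direction. Ikbkb, the gene of IKKβ, was not on the panel.

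NF-κB acts on both chemokine promoters, and its part in their values was not tested. Of 15 measured NF-κB genes and targets, 6 fell and 0 rose, against 7.03% lower over the whole panel. The median log2 change was -0.79, against -0.03 over all genes. Ccl3, Ccl4 and Cxcl2 are also counted among the chemokine ligands below. The largest falls were in the chemokine genes Ccl4 (-2.86 ± 0.34 SE, adjusted p = 0.00220) and Ccl3 (-2.63 ± 0.39, adjusted p = 0.00591), followed by Tnfaip3 (-2.38 ± 0.45, adjusted p = 0.0168), a feedback inhibitor of the pathway, and Cxcl2 (-2.18 ± 0.51, adjusted p = 0.0363), a neutrophil attractant. Tnf and the inhibitor gene Nfkbia fell by 2.03 and 1.48. In contrast to Cxcl9 and Cxcl10, 5 of the 15 genes were at least 2-fold over PBS replicates 2 and 3 in PBS replicate 1, and 1 was under. When IRF5-NP replicate 1 was left out, the count of 6 became 3, and when IRF5-NP replicate 3 was left out, Ccl4 alone remained. Tnf was also lost without PBS replicate 1 (adjusted p = 0.0741), and Nfkbia without PBS replicate 1 (0.0739) or IRF5-NP replicate 2 (0.0603).

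Other chemokine ligand genes were also lower with IRF5-NPs. Of the 31 others on the panel, 24 were above background in at least 1 sample, 8 fell and 1 rose. Over all genes 7.03% fell and 2.52% rose. The median log2 change of these ligands was -0.47. Those that fell include Ccl3, Ccl4 and Cxcl2, also counted in the NF-κB list, and Cxcl16, also counted as IFN-γ-induced. The largest falls were in the monocyte attractants Ccl7 (-3.64 ± 0.38 SE, limma adjusted p = 0.00139), Ccl2 (-3.52 ± 0.33, adjusted p = 0.000929) and Ccl12 (-3.30 ± 0.42, adjusted p = 0.00307), with estimates beyond that of Cxcl9, a difference that was not tested. Ccl2 was measured at 11562, 7616 and 7570 normalized counts with PBS and at 1217, 646 and 696 with IRF5-NPs, with no overlap. The gene that rose was Cxcl13, a B cell attractant (2.01 ± 0.36, adjusted p = 0.0155), whose call was lost without PBS replicate 1 (adjusted p = 0.0870) or IRF5-NP replicate 3 (0.0966). The count of 8 was 4 without IRF5-NP replicate 3, where Ccl3 (0.0650) and Cxcl16 (0.133) were lost, and Ccl8 (0.0638 and 0.0951) and Cxcl2 (0.103 and 0.140) were lost without IRF5-NP replicate 1 or 3.

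The chemokine genes differed in PBS replicate 1. Of the 24 ligand genes above background, 9 were at least 2-fold over PBS replicates 2 and 3 in that sample and 1 was under, with a median log2 difference over the list of 0.68, while Cxcl9 and Cxcl10 were under by 1.23 and 1.84. The 9 include Ccl3, Cxcl1 and Cxcl2, which are also in the NF-κB list. The neutrophil attractant Cxcl2 was measured at 3906 normalized counts in PBS replicate 1 against 930 and 1011 in PBS replicates 2 and 3. Cxcl9 and Cxcl10 were thus low in the PBS sample in which several other ligands were high, including Ccl5, another IFN-γ-induced ligand, at 887 normalized counts against 449 and 446.

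**Figure D4:**
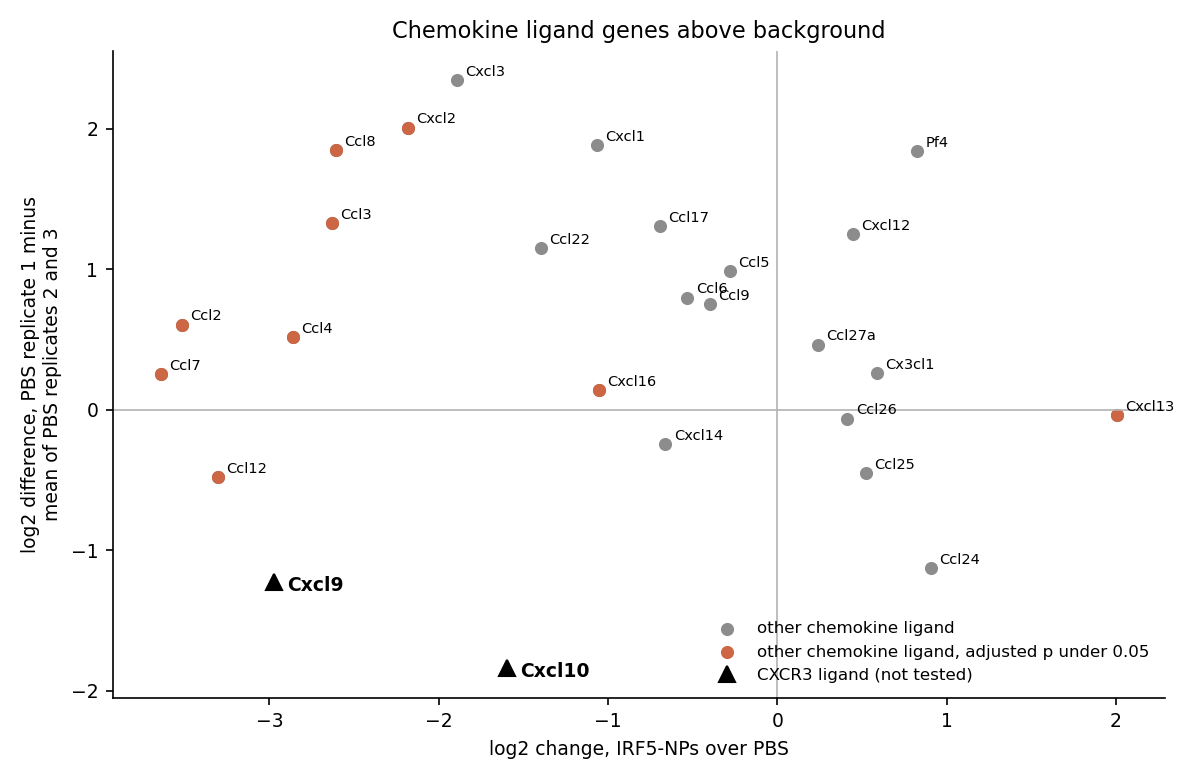
Log2 change, IRF5-NPs over PBS (horizontal axis), against the log2 difference between PBS replicate 1 and the mean of PBS replicates 2 and 3 (vertical axis) for each chemokine ligand gene above background, with axes that share the PBS values. Cxcl9 and Cxcl10 (triangles) lie lowest, at -1.23 and -1.84 on the vertical axis, and Ccl2, Ccl7, Ccl4, Ccl3, Ccl8 and Cxcl2 lie at the left with positive vertical values, while Ccl12 lies at the left with a negative one (-0.48).

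The receptor side could not be followed in these cells. Cxcr3 was below background in all samples, at 11.3 to 30.5 normalized counts, as was Dpp4, which encodes a peptidase that cleaves the ligands. Pf4, a platelet factor that also binds CXCR3, had a log2 change of 0.83 ± 0.55 (SE, adjusted p = 0.420). Of 7 markers of T cells and natural killer cells on the panel, 5 were below background in every sample (Cd247, Cd27, Cxcr3, Gzma and Nkg7), 0 passed in either direction, and the summed level was 181 to 205 normalized counts with PBS and 161 to 257 with IRF5-NPs. The samples analysed here hold RNA of sorted macrophages and give no measure of chemokine protein or T cell movement.

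A few markers of other myeloid cells changed between the groups while most did not pass the test, and their part in the values of Cxcl9 and Cxcl10 was not tested. Of 7 monocyte markers, 1 fell, Chil3 (log2 change -5.23), whose probe was not tested for reading its close paralogs, and the summed level was 22697 to 31089 normalized counts with PBS and 6675 to 7408 with IRF5-NPs. The other 6 monocyte markers summed to 5608 to 7458 and to 5853 to 7018, so that only Chil3 separated the groups in this sum. Of 9 dendritic cell markers, 1 fell, Itgax (-1.88, adjusted p = 0.00589), the summed level was 708 to 722 against 454 to 660 (517 to 567 against 406 to 619 without Itgax), and Xcr1 and Dpp4 were below background in every sample. Of 5 markers of resident peritoneal macrophages, 2 rose, Timd4 (2.48) and Selp (2.19), and the summed level was 20277 to 47227 with PBS and 69965 to 102959 with IRF5-NPs. Timd4 was lost without PBS replicate 1 (adjusted p = 0.103) or IRF5-NP replicate 3 (0.0954), and Selp without PBS replicate 1 or any IRF5-NP library (0.0515 to 0.235). Of 11 neutrophil markers, 1 fell, Mmp8 (-1.86), and 1 rose, Csf3r (0.88). Mmp8 was lost without IRF5-NP replicate 1 (adjusted p = 0.0515) or 3 (0.0650), and Csf3r without IRF5-NP replicate 2 (0.154) or 3 (0.201). Without PBS replicate 1 their log2 changes were -1.44 and 0.91. The summed levels were 2333 to 7292 and 1668 to 2666, with S100a8 at 3405 and S100a9 at 2598 in PBS replicate 1. Camp, Ctsg and Mpo were below background. The 1 measured B cell marker, Ms4a1, rose (16 to 26 normalized counts with PBS, 50 to 75 with IRF5-NPs), but was lost without PBS replicate 1 or any IRF5-NP library (0.0566 to 0.114), and 0 of 2 tumor and mesothelial markers passed.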

How the data were processed

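The authors ran total RNA of F4/80+ CD11b+ peritoneal macrophages on a NanoString nCounter panel. The deposited values are a signal, the normalized count on a linear scale, scaled to housekeeping genes per the methods of the study, with control probes left as raw counts. The table holds 768 probes, namely 754 genes, 8 negative and 6 positive controls. Genome build and aligner do not apply to these probe counts. Gene values divided by 1 factor per sample (0.952 to 2.60) were whole within 0.01 for all 754 genes. The resulting counts gave depth, background (mean of the negative controls plus 2 SD), the chi-square comparison of the 15 sample pairs and exact 95% Poisson intervals, which cover counting error only. The highest positive control level was 2.42 times the lowest, that of PBS replicate 1. RefSeq held 744 of the symbols as such and 9 as synonyms.

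Groups came from the labels. Log2 values with a pseudocount of 1 were compared with limma 3.58.1 in R 4.3.3 (lmFit, eBayes with trend, two-sided), unfiltered, and p-values were Benjamini-Hochberg adjusted across the 754 genes (threshold 0.05). PBS replicates 2 and 3 entered as their mean. The script was tested on simulated data. In the analysis, 124 genes were below background in every sample. Named genes were the 3 ligands, the CXCR3 and IFN-γ signalling genes, the 5 genes nearest to Cxcl9 and to Cxcl10 with and without the group means, the 4 largest changes past the threshold in each list, and Irf5, and further list members are named where a count is explained. Some genes of these sets are not reported here. The ligands, gene lists and tests were chosen with earlier results of these data known. Python 3.11.15, numpy 2.4.6, pandas 2.3.3, scipy 1.17.1 and matplotlib 3.10.9 were used. Alternatives changed the scaling, background, pseudocount, filter, variance prior, test, adjustment, pairing and samples.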

Additional observations from a re-analysis of the deposited data

How the results depend on the processing

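Cxcl9 and Cxcl10 stayed lower with IRF5-NPs under every scaling, pseudocount, background and sample choice that was run. Because the groups did not overlap, leaving out a library or changing the pseudocount could not reverse this direction. The log2 change ranged from -3.83 to -2.69 for Cxcl9 and from -2.52 to -1.36 for Cxcl10. The values that moved by more than the spread between replicates were those with positive control scaling (-3.83 and -2.45), Cxcl9 with background subtracted (-3.61), and both without PBS replicate 1 (-3.59 and -2.52). Leaving out each library in turn gave -3.59 to -2.84 for Cxcl9 and -2.52 to -1.40 for Cxcl10. The difference between the log2 changes, -1.38, ranged from -1.63 to -1.01.

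The number of genes past the threshold, 72 with 19 higher and 53 lower, depended strongly on the setting. It was 121 (37 higher, 84 lower) with 6 separate samples, 14 (0 and 14) with positive control scaling, 25 (4 and 21) with background subtracted, 41 (8 and 33) without a variance trend, 21 (2 and 19) with Benjamini-Yekutieli adjustment, 43 (12 and 31) by the methods' t-test with 6 separate samples and 0 by the methods' t-test with 5 distinct samples, where 125 genes had an unadjusted p under 0.05 against 191 by limma. A common median over all genes gave 42 higher and 36 lower, and quantile normalization 35 higher and 40 lower. These scalings and the positive controls moved the median change of all genes to 0.21, 0.11 and -0.88. Leaving out each library gave 21 to 83 genes, 2 to 24 higher and 19 to 59 lower.

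Among the IFN-γ-induced genes, the 10 lower became 4 with positive control scaling and 0 by the methods' t-test, and 1 was higher with quantile normalization. The type I interferon-induced genes lower were 0 to 3 when each library was left out, with 3 without PBS replicate 1. The count of IFN-γ supply and signalling genes, 1, was 2 with 6 separate samples and 0 with quantile normalization, positive control scaling, background subtraction, no trend, either methods' t-test and Benjamini-Yekutieli adjustment, and 0 to 2 with each library left out. The NF-κB genes lower, 6, were 1 with positive control scaling, background subtraction and the methods' t-test with 6 separate samples, 2 with Benjamini-Yekutieli adjustment, 0 by the methods' t-test, and 1 to 6 with each library left out. The other chemokine ligand genes lower, 8, were 4 with positive control scaling and the methods' t-test with 6 separate samples, 2 with background subtraction, 5 with Benjamini-Yekutieli adjustment, 0 by the methods' t-test and 4 to 8 with each library left out. The 1 that was higher became 0 under these same settings and was 0 to 1 with each library left out. The cause of these shifts was not tested.

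The replicate number was checked as a pairing. Correlations of same-numbered deviations were 0.159, 0.178 and 0.0953 over 482 genes, and PBS replicate 3 correlated best with IRF5-NP replicate 2 (0.144). PBS replicates 1 and 2 correlated best with the IRF5-NP samples of their own number. Because PBS replicates 2 and 3 differed by no more than counting noise, this check cannot decide whether the numbers pair the samples. With a replicate block, 135 genes passed (52 higher, 83 lower), with 2 IFN-γ supply and signalling genes and 1 type I interferon-induced gene, Irf7, higher.

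Of the genes with small changes, Usp18 reversed to -0.22 with 6 separate samples, by either test or with the block, to -0.64 with positive control scaling and to -1.09 without PBS replicate 1 (up to 0.25 with another library left out). Irf1 reversed to -0.47 with positive control scaling and -0.14 without PBS replicate 1 (up to 0.50 with another library left out), and Ifngr1 to 0.15 without PBS replicate 1 (down to -0.44). Irf5 reversed to 0.034 with 6 separate samples, by either test or with the block, 0.21 with a common median, 0.33 with quantile normalization, 0.16 without PBS replicate 1 and 0.05 without IRF5-NP replicate 1, and was lowest without IRF5-NP replicate 2 (-0.0825). A count test with edgeR was not run. All gene values were whole after division by 1 factor per sample, but a separate stepwise check for recovered counts passed only in the PBS samples. Cxcl11 lay near or below background, and Ifng and Cxcr3 lay below it in every sample. The background was highest in IRF5-NP replicate 3.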
